A study of Mus musculus with 4 samples.

Results

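The 5 alpha-tubulin genes *Tuba1a*, *Tuba1b*, *Tuba1c*, *Tuba4a* and *Tuba8* and the 3 enzyme genes *Atat1*, *Hdac6* and *Sirt2* were picked by name and function. They come out of the 21957 genes measured by RNA-seq in mouse oocytes. No threshold was set on their values, but earlier results of these data were known at the time. All 8 were found in the table by Ensembl identifier, and 7 of them, all but *Tuba8*, reached 1 FPKM, that is, fragments scaled by transcript length and by all mapped fragments of the library, in at least 1 library. Fully grown oocytes at the germinal vesicle (GV) stage came from B6D2F1 (C57BL/6 x DBA) females aged 6 to 8 weeks. The females had been injected with pregnant mare serum gonadotropin, and the oocytes were stripped of cumulus cells. The GV library was made at 0 h of culture, the MII library from oocytes matured for 12 h in M16 medium without drug and collected when they had a polar body, and the TubA-10 and TubA-20 libraries from oocytes held for 12 h with 10 or 20 μM tubastatin A (TubA), an inhibitor made against HDAC6. The methods do not say whether the MII oocytes received the solvent DMSO. Whether TubA oocytes were picked by a polar body is not given either. The paper reports that TubA-treated oocytes failed to extrude a polar body, and that the higher dose held back progress to the MII stage. The TubA and MII libraries may thus differ in meiotic stage as well as in drug. The part of stage in the differences between them was not tested. The doses are those of the sample titles, whereas their treatment field reads 20 μM for the first of them and 11 μM for the other, and the MII sample is labelled there as an embryo. Each library was a pool of 100 oocytes by the methods, although the series title speaks of single cells, and there was 1 library per condition, so no value below has a replicate error or a p-value, and differences cannot be set against the spread between oocyte pools.

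Alpha-tubulin pairs with beta-tubulin to form the building block of microtubules, and in an oocyte these build the meiotic spindle. ATAT1 adds an acetyl group to lysine 40 of alpha-tubulin inside the microtubule, and HDAC6 and the NAD-dependent enzyme SIRT2 remove it. Acetylated tubulin is commonly used as a mark of long-lived microtubules. A growing oocyte stores mRNA and stops transcribing when fully grown, so that maturation runs on stored messages, many of which are degraded or have their poly(A) tails shortened or lengthened.

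The codons around the acetylated lysine are shown because they are the site on which the 3 enzymes act and because they show how alike these genes are. Each line gives codons 35 to 44 counted from the start codon of the principal GENCODE M21 transcript, on the coding strand of GRCm38, with codon 40 in capitals.
Tuba1a (chr15:98951563-98951592, minus strand, exon 2): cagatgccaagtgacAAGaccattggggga
Tuba1b (chr15:98933067-98933096, minus strand, exon 2): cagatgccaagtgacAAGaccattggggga
Tuba1c (chr15:99034193-99034222, plus strand, exon 2): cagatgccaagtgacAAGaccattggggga
Tuba4a (chr1:75217306-75217335, minus strand, exon 2): cagatgcccagcgatAAGaccattggtgga
Tuba8 (chr6:121220483-121220512, plus strand, exon 2): acctttggcactcagGCCagcaagatcaac
*Tuba1a*, *Tuba1b* and *Tuba1c* had the same 30 bases, *Tuba4a* shared 26 of the 30 with them, and all 4 had a lysine codon at position 40. *Tuba8* shared 7 of the 30 bases with each of the others at the same positions and had no lysine codon there. Of all 8 mouse alpha-tubulin genes in the table, 6 had lysine at codon 40, the exceptions being *Tuba8* and *Tubal3*.

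The likeness of the *Tuba1* genes bears on how far their values can be told apart. *Tuba1a* (chromosome 15, 98949837 to 98953703) and *Tuba1b* (chromosome 15, 98931425 to 98934565) had coding sequences that were 98.3% identical. Of the 100-base windows of the principal transcript, 65.1% in *Tuba1a*, 69.5% in *Tuba1b* and 53.4% in *Tuba1c* (chromosome 15, 99029891 to 99038110) also occurred in a transcript of another gene, among them each other and the annotated genes *Gm17383*, *Gm49450*, *Gm14150* and *Gm3226*, of which none was matched in the table. *Gm49450* also overlaps *Tuba1a* and *Tuba1b* on the same strand. No such window was found for *Tuba4a* (chromosome 1, 75214228 to 75219865), *Tuba8* (chromosome 6, 121210696 to 121226854), *Atat1* (chromosome 17, 35897595 to 35910075), *Hdac6* (X chromosome, 7930120 to 7947889) or *Sirt2* (chromosome 7, 28766735 to 28788661). The split between the *Tuba1* genes is therefore uncertain, and their sum, which may still hold or lack fragments of these 4 genes, is given beside them. On the opposite strand *Atat1* is overlapped over its whole length by the antisense gene *Gm16279*, *Tuba4a* by *Stk16* over 1379 bases and *Sirt2* by *Nfkbib* over 778 bases, and the authors' quantification used strand.

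All 12 oocyte markers were above 1 FPKM in every library, with summed levels between 10976 and 14482 FPKM. Of 12 cumulus and granulosa cell markers, 2 reached 1 FPKM in GV, MII and TubA-10 and 5 in TubA-20, with sums between 10.8 and 17.8 FPKM, and none of the 5 blood or 5 stromal markers reached 1 FPKM anywhere. From the smallest FPKM steps, TubA-10 (1.68 times GV) and MII (1.63 times GV) were estimated to be deeper than GV and TubA-20 (0.896 times GV) about as deep, an estimate with no error of its own that does not settle the order of TubA-20 and GV or of TubA-10 and MII. Over 9193 genes with at least 1 FPKM in all 4 libraries the median log2 distance from GV was 0.13 for MII and 0.14 and 0.19 for the lower and higher TubA dose, a shift to which the changes below can be related. The part of these differences in the values below was not tested.

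*Tuba4a*, an alpha-tubulin isotype known for its abundance in platelets and muscle, had the largest differences of the 8 genes. It was at 182 FPKM at GV, 29.6 at MII, 40.1 with 10 μM and 13.4 with 20 μM TubA. GV thus stood far above all cultured oocytes, and TubA-20 was the lowest. On the scale of log2 of FPKM + 1, used for all changes below, *Tuba4a* fell from GV to MII (−2.58), to TubA-10 (−2.15) and to TubA-20 (−3.66). Of the 10898 genes with at least 1 FPKM in a library, 0.633%, 0.908% and 0.615% had lower values of these changes. TubA-20 was also lower than MII by more than 2-fold (−1.08), while TubA-10 lay above MII by 0.43, and from TubA-10 to TubA-20 it fell by 1.51. A lower level in a pool of oocytes may mean fewer molecules per oocyte or fewer oocytes that hold them, and after oligo(dT) selection it may also mean shorter tails, and these cannot be told apart.

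*Tuba1c*, a widely expressed isotype, was the steadiest alpha-tubulin gene of the list, at 67.0 FPKM at GV, 72.0 at MII, 59.2 with 10 μM and 84.9 with 20 μM TubA. Its highest value was 1.43 times its lowest. *Tuba1b*, another widely expressed isotype, was at 24.3 FPKM at GV, 14.0 at MII, 13.0 with 10 μM and 7.90 with 20 μM TubA. It passed 2-fold only in TubA-20 against GV, at −1.51, with −0.75 in MII and −0.85 in TubA-10, the last of which became −1.002 and passed 2-fold with the median change set to 0. Against MII it was at −0.76 in TubA-20 and −0.10 in TubA-10.

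*Tuba1a*, the main isotype of neurons, was low in oocytes, at 2.36 FPKM at GV, 1.77 at MII, 3.13 with 10 μM and 1.39 with 20 μM TubA. None of its changes passed 2-fold on this scale, the largest being −0.79 between TubA-10 and TubA-20, which passed with a pseudocount of 0.1 (−1.11) or 0.01 (−1.16). *Tuba8* was listed at 0.0999 FPKM in GV and at 0 in the 3 other libraries, too low for a statement on direction.

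Added together, *Tuba1a*, *Tuba1b* and *Tuba1c* came to 93.7 FPKM at GV, 87.8 at MII, 75.3 with 10 μM and 94.2 with 20 μM TubA. The sum thus stayed within a narrow range, with log2 differences of −0.09, −0.31 and 0.01 from GV. It is less touched by the split between its members than each of them is, but not free of it. FPKM is scaled by transcript length, and their principal transcripts are 1743 to 1982 bases long. The sum of all 5 listed alpha-tubulin genes was 275 FPKM at GV, 117 at MII, 115 with 10 μM and 108 with 20 μM TubA. GV stood apart from the 3 cultured libraries, which differed little. The log2 changes of this sum against GV were −1.22 for MII and −1.25 and −1.35 for the lower and higher dose, and with equal *Gapdh* the first and second were −0.995 and −0.98 and fell just short of 2-fold. Against MII the sum differed by −0.02 in TubA-10, 0.01 with equal *Gapdh*, and by −0.12 in TubA-20.

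The makeup of the 5-gene alpha-tubulin sum, which does not depend on how libraries are scaled, differed among the cultured libraries as well. *Tuba4a* held 65.9% of the 5-gene sum at GV, 25.2% at MII, 34.8% with 10 μM and 12.5% with 20 μM TubA. *Tuba1c* held 24.3%, 61.3%, 51.3% and 78.9% in the same order. Within these 5 genes GV was thus mostly *Tuba4a* and TubA-20 mostly *Tuba1c*, with TubA-10 lying between GV and MII. The *Tuba1* genes together held 34.0% at GV, 74.8% at MII, 65.2% with 10 μM and 87.5% with 20 μM TubA. This share is less touched by the split among the 3 than theirs are singly, but is not free of it or of the 4 annotated genes that share their windows.

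The 3 alpha-tubulin genes outside the list, *Tuba3a*, *Tuba3b* and *Tubal3*, give the rest of the family. *Tuba3a*, an isotype known from testis, was at 193 FPKM at GV, 62.7 at MII, 97.9 with 10 μM and 36.1 with 20 μM TubA, so that in GV it stood slightly above *Tuba4a*. It fell from GV to MII (−1.61) and to TubA-20 (−2.39). *Tuba3b* went from 42.5 FPKM at GV to 20.7 at MII, 31.5 with 10 μM and 20.0 with 20 μM TubA, and *Tubal3* stayed between 9.49 and 12.4 FPKM. Over all 8 alpha-tubulin genes the sums were 520.4 FPKM at GV, 211 at MII, 256 with 10 μM and 176 with 20 μM TubA. *Tuba4a* then held 34.9% in GV and 7.62% in TubA-20, and *Tuba1c* 12.9% and 48.2%. *Tuba3a* held 37.1% in GV, the largest share there, and 20.5% in TubA-20. No gene thus held most of the 8-gene sum in GV or TubA-20.

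**Figure D1:**
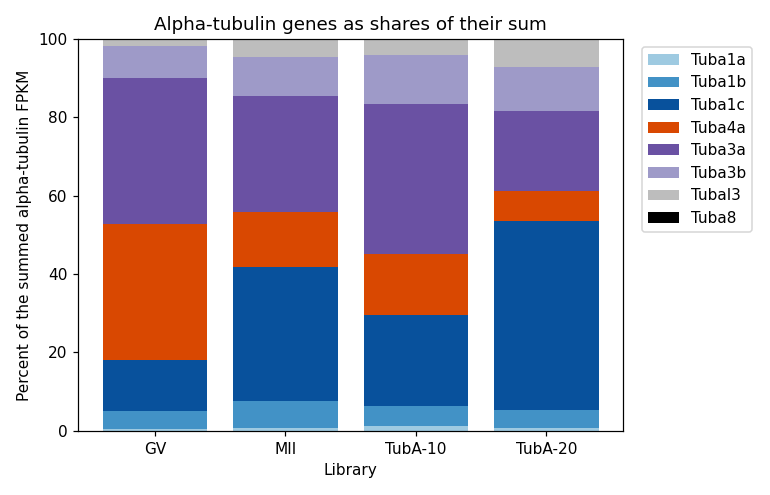
Stacked bars give each alpha-tubulin gene as a percent of the summed FPKM of all 8 alpha-tubulin genes (y axis) in each of the 4 libraries (x axis). *Tuba4a* took 34.9% of the GV bar and 7.62% of the TubA-20 bar, while *Tuba1c* took 12.9% and 48.2%.

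*Atat1* encodes the main alpha-tubulin acetyltransferase. It was at 20.8 FPKM at GV, 22.2 at MII, 26.6 with 10 μM and 35.5 with 20 μM TubA, so that both TubA libraries lay above MII and TubA-20 was the highest. Set against MII its log2 value was 0.26 higher at the lower dose and 0.66 higher at the upper one. Of the tested genes 73.1% and 95.9% had lower changes than these. Set against GV the differences were 0.34 and 0.74, with 67.6% and 73.9% of the tested genes lower. All 4 differences stayed under 2-fold and kept their sign under 4 scalings of the libraries. The 0.08 between GV and MII turned to −0.05 with the median change set to 0.

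*Hdac6*, the cytoplasmic deacetylase against which TubA was made, was at 4.44 FPKM at GV, 3.74 at MII, 3.0 with 10 μM and 1.86 with 20 μM TubA. It was the least abundant of the 3 enzymes in every library, and TubA-20 had the lowest value. Against GV its log2 change was −0.20 at MII, −0.44 with 10 μM and −0.93 with 20 μM TubA, the last just short of 2-fold but past it with a pseudocount of 0.1 (−1.21) or 0.01 (−1.25) or with the median change set to 0 (−1.07). Its change from MII was −0.25 with 10 μM and −0.73 with 20 μM TubA, and 9.98% of tested genes were lower than the latter. For its change from GV to TubA-20, 25.1% of tested genes were lower. *Sirt2* was at 6.77 FPKM at GV, 4.18 at MII, 6.19 with 10 μM and 1.97 with 20 μM TubA. TubA-10 was close to GV and TubA-20 far below all others, with a log2 change of −1.39 against GV and −1.27 against TubA-10, both past 2-fold. Against MII *Sirt2* stood at 0.47 in TubA-10 and −0.80 in TubA-20.

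Since *Atat1* and the deacetylase genes differed in opposite directions in TubA-20, their ratio within a library, free of any scaling, was computed. *Atat1* over the sum of *Hdac6* and *Sirt2* was 1.86 at GV, 2.80 at MII, 2.90 with 10 μM and 9.28 with 20 μM TubA. MII and TubA-10 were nearly the same, and TubA-20 stood apart. *Atat1* over *Hdac6* was 4.70, 5.92, 8.89 and 19.1 in that order, and *Atat1* over *Sirt2* was 3.08, 5.30, 4.30 and 18.0. TubA-10 thus lay above MII by the first ratio and below it by the second. These are ratios of mRNA levels and say nothing of enzyme activity or tubulin acetylation, which were not measured in these files.

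**Figure D2:**
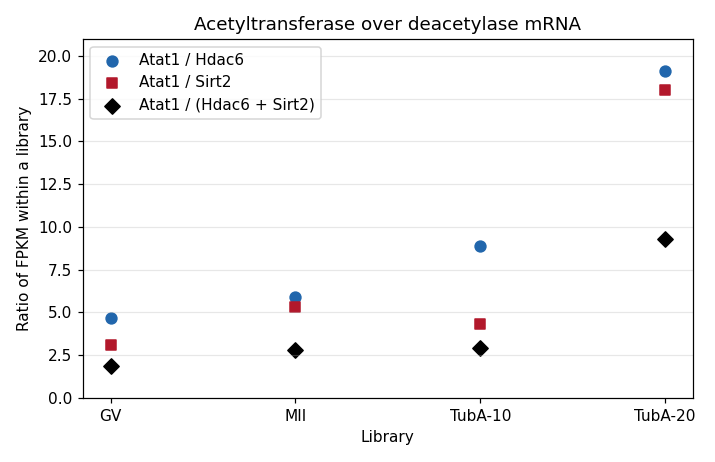
Points give the ratio of *Atat1* FPKM to *Hdac6*, to *Sirt2* and to their sum (y axis, linear) within each of the 4 libraries (x axis). All 3 ratios were highest in TubA-20, at 19.1, 18.0 and 9.28.

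**Figure D3:**
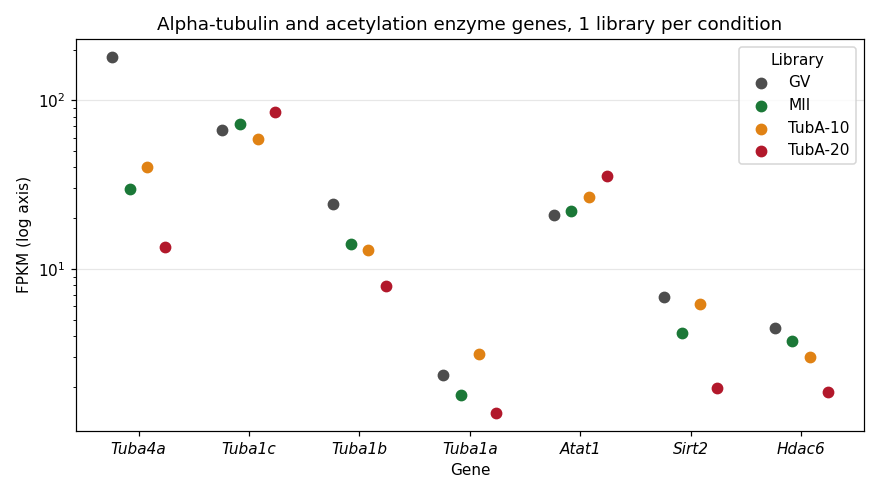
FPKM of the 7 listed genes that reached 1 FPKM (y axis, log scale) by gene (x axis), with 1 point for each library. *Tuba4a* spans 13.4 to 182 FPKM, and TubA-20 is the lowest library for all but *Tuba1c* and *Atat1*.

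Among the 7 genes with at least 1 FPKM, *Tuba4a* alone fell by more than 2-fold from GV to MII, where 16.8% of tested genes fell and 6.14% rose as much, and no listed gene rose. From GV to TubA-10 *Tuba4a* was again the 1 gene past 2-fold, in a background of 11.3% lower and 1.5% higher. From GV to TubA-20 the 3 genes *Tuba4a*, *Tuba1b* and *Sirt2* fell past 2-fold and none rose, while 23.6% of tested genes fell and 15.3% rose. The count was 4, with *Hdac6*, when the pseudocount was 0.1 or 0.01 or the median change was set to 0. Between MII and TubA-10 none passed 2-fold, where 0.257% of tested genes were lower and 1.04% higher. Between MII and TubA-20 *Tuba4a* was lower, against 4.92% of tested genes lower and 0.661% higher. Between TubA-10 and TubA-20 *Tuba4a* and *Sirt2* were lower, with 11.1% of tested genes lower and 1.33% higher. The median log2 change of the 7 genes was −0.28 in MII and −0.93 in TubA-20 against GV, and −0.73 in TubA-20 against MII, where the medians of all tested genes were 0.04, 0.07 and 0.00. With 7 genes, counts of 1 to 3 are too small to be set apart from these backgrounds, and the comparisons with GV share the GV library.

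**Figure D4:**
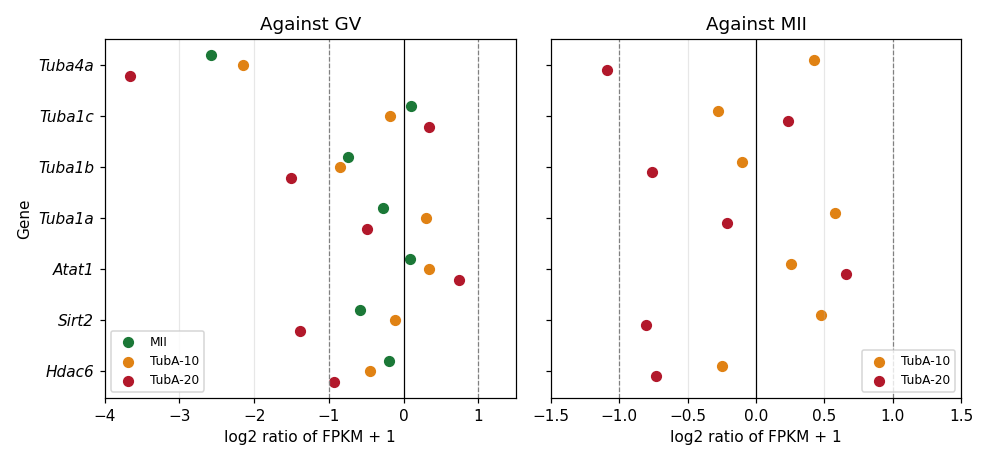
Log2 ratios of FPKM + 1 (x axis) for the 7 genes (y axis), against GV on the left and against MII on the right, with dashed lines at 2-fold. *Tuba4a* is past 2-fold in all 3 comparisons with GV (−2.58, −2.15 and −3.66) and *Atat1* lies to the right of 0 in TubA-20 in both panels (0.74 and 0.66).

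**Figure D5:**
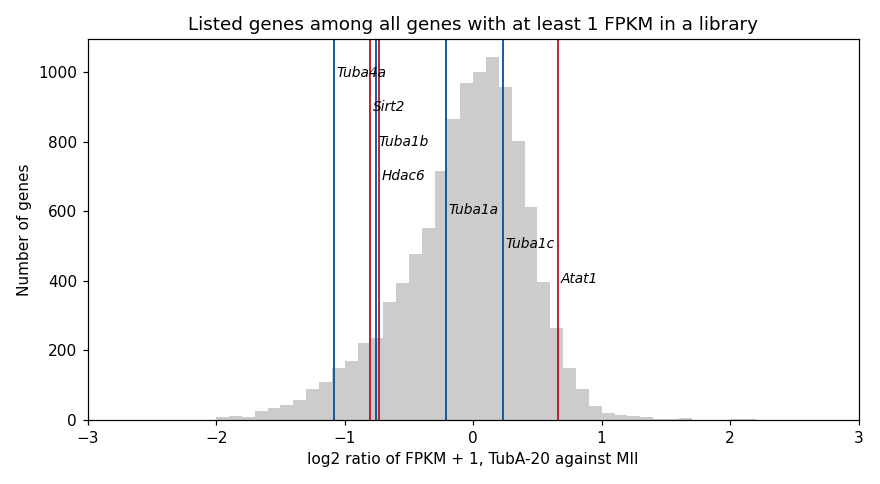
The histogram counts the 10898 tested genes (y axis) by their log2 ratio of FPKM + 1 in TubA-20 against MII (x axis), with vertical lines for alpha-tubulin genes in blue and enzyme genes in red. *Tuba4a* (−1.08), *Sirt2* (−0.80), *Tuba1b* (−0.76) and *Hdac6* (−0.73) lie in the left flank and *Atat1* (0.66) in the right.

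The beta-tubulin genes, whose products pair with alpha-tubulin, are the set most like the alpha-tubulins. Of 8 genes 6 reached 1 FPKM, and 3 fell past 2-fold from GV to MII, where 16.8% of all tested genes did, and 4 fell to TubA-20, where 23.6% did. *Tubb4b* went from 662 FPKM at GV to 171 at MII, 215 with 10 μM and 94.6 with 20 μM TubA. From MII to TubA-20 the 3 genes *Tubb2b* (−1.87), *Tubb5* (−1.05) and *Tubb6* (−1.02) fell, where 4.92% of all tested genes did, and *Tubb3* was at 0.29. *Tubb2a*, the highest of them at MII, went from 197 FPKM at GV to 319 at MII (0.69). It was at 354 FPKM with 10 μM and 185 with 20 μM TubA, the latter at −0.78 against MII. The sum of the beta-tubulin genes was 1351 FPKM at GV, 863 at MII, 988 with 10 μM and 610.4 with 20 μM TubA. All 8 alpha-tubulin genes together came to 0.385 of the beta-tubulin sum at GV, 0.244 at MII, 0.259 with 10 μM and 0.288 with 20 μM TubA, so the ratio was highest in GV.

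Of the gamma-, delta- and epsilon-tubulins, *Tubg2*, whose product helps to nucleate microtubules, was at 55.0 FPKM at GV, 99.9 at MII (0.85) and 134 with 20 μM TubA (1.27), the last past 2-fold. *Tubd1* fell from 14.3 FPKM at GV to 6.21 at MII (−1.09) and 3.52 with 20 μM TubA (−1.76). Neither passed 2-fold between MII and TubA-20. *Tube1* was at 10.4 FPKM at GV against 18.3 with 20 μM TubA, short of 2-fold. Of the folding cofactors of alpha-tubulin, *Tbcb* fell from 118 FPKM at GV to 50.9 at MII, 55.9 with 10 μM and 37.9 with 20 μM TubA, past 2-fold in each, and *Tbce* stayed between 4.14 and 6.02 FPKM.

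The other acetyltransferases tied to alpha-tubulin in the literature were *Elp3*, *Nat10*, *Kat2a* and *Naa10*. *Naa10*, an N-terminal acetyltransferase, fell from 44.8 FPKM at GV to 8.45 at MII, 12.4 with 10 μM and 5.13 with 20 μM TubA. *Elp3*, the catalytic subunit of Elongator, fell from 16.1 to 6.75 in MII and 3.83 in TubA-20 and was at 11.6 in TubA-10. *Nat10* lay between 9.97 and 15.9 FPKM and passed 2-fold nowhere. None of the 4 was higher in TubA-20 than in MII. Among the 16 deacetylase genes other than *Hdac6* and *Sirt2*, 12 reached 1 FPKM and none differed by 2-fold between MII and TubA-20. Of all tested genes 4.92% were lower and 0.661% higher there, so none of 12 is near that background. *Sirt5* and *Sirt6*, both sirtuins, fell past 2-fold already from GV to undrugged MII (−1.32 and −1.66), with −1.90 and −1.99 from GV to TubA-20. A further sirtuin, *Sirt7*, was at −0.71 from GV to MII and passed 2-fold downward from GV to TubA-20 (−1.25). In all, 2 of the 12 fell past 2-fold from GV to MII, where 16.8% of all tested genes did. From GV to TubA-20 3 of the 12 fell, where 23.6% did, so both counts are near the background. *Hdac9*, a class IIa deacetylase, was at 1.44 FPKM at GV, 3.91 at MII and 2.87 and 3.81 at the 2 doses. On the scale of FPKM + 1 its changes from GV were 1.01, 0.67 and 0.98. MII was thus just past 2-fold and TubA-20 just short of it, with nearly the same level.

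Enzymes of other tubulin modifications moved in both directions. Of 13 genes for tubulin glutamylation and glycylation ligases 8 reached 1 FPKM, and from GV to TubA-20 *Ttll1*, *Ttll10*, *Ttll11* and *Ttll12* fell and *Ttll5* rose past 2-fold. *Ttll1*, part of a neuronal and ciliary polyglutamylase, went from 20.8 FPKM at GV to 7.07 at MII, 7.90 with 10 μM and 2.57 with 20 μM TubA. *Ttll10* went from 3.82 FPKM to 0.598, 1.32 and 0.171, and *Ttll11* from 57.7 to 23.9, 45.5 and 15.1. Of 6 cytosolic carboxypeptidases, which shorten glutamate chains on tubulin, 4 reached 1 FPKM. *Agbl3* rose past 2-fold, from 5.34 FPKM in GV to 13.5 in TubA-10 and 13.4 in TubA-20, with 11.4 in MII. *Agtpbp1* was at 27.8 FPKM at GV, 46.7 at MII and 55.4 with 20 μM TubA, the last short of 2-fold (0.97), and *Agbl2* at 0.271, 1.21 and 1.46. Of the tyrosination cycle *Svbp*, the partner of the vasohibin carboxypeptidases, lay between 72.6 and 115 FPKM, and *Ttl*, the tyrosine ligase, between 1.06 and 1.23. Of the 61 genes of all these lists 45 reached 1 FPKM. Among these, 17 were lower and 3 higher by 2-fold in TubA-20 than in GV, with a median log2 change of −0.39, where 23.6% of all tested genes were lower and 15.3% higher and their median was 0.07. In undrugged MII 15 were already lower and 2 higher than in GV, with a median of −0.16. Of all tested genes 16.8% were lower and 6.14% higher there, with a median of 0.04. Against MII 4 were lower and none higher, with a median of −0.30, where 4.92% of all tested genes were lower and 0.661% higher and their median was 0.00.

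The 3 genes with the pattern nearest to *Atat1* over the 4 libraries, by the distance between centred log2 values, were *Abhd11* (0.06), *Tmem67* (0.06) and *Ripk2* (0.06). For *Hdac6* they were *Tle1* (0.07), *Coro1c* (0.08) and *Ammecr1* (0.08), and for *Sirt2* they were *Shc3* (0.03), *Tmem229b* (0.07) and *Atf4* (0.08). Within a distance of 0.25 lay 288 genes for *Atat1*, 128 for *Hdac6* and 109 for *Sirt2*, out of 10898 tested genes. None of these patterns was thus particular to its gene.

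The cytoplasmic polyadenylation element is a sequence near the end of many maternal mRNAs whose binding protein governs tail length during maturation. The motifs TTTTAT and TTTTAAT were searched on the transcript strand in the last 100 bases of the principal transcripts. None of the 8 listed genes held either motif there, against 20.0% of 10031 tested genes with such an end. The genes with a motif had a median log2 change from GV to MII of 0.39 and those without it −0.03, and a missing match says only that these letters are not in this window.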

How the data were processed

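Libraries from oocyte pools were prepared with oligo(dT) selection and a strand-specific protocol and sequenced from both ends. The authors deposited 1 table of FPKM values, made with cufflinks (first-strand library type, other options default) on mm10, and the submitters' processing notes name STAR 2.5.0, Cufflinks and Cuffdiff 2.2.1. Values were already divided by transcript length and mapped fragments. Of 21959 entries, 21794 were given a symbol by identifier from GENCODE M21 (GRCm38), and summing repeated symbols gave 21957 genes. Log2 ratios of FPKM + 1 were computed between libraries, which understates the change of low genes. A gene was counted past 2-fold at a ratio above 2 or below its inverse, among the 10898 genes with at least 1 FPKM in 1 of the 4 libraries, since others cannot pass. The 8 genes and the 9 lists were chosen with earlier results of these data known. Non-members were named when among the 3 largest changes of their list in TubA-20 against MII or in MII against GV. The other list genes that passed 2-fold and are named, such as *Ttll5*, *Tubb6* and *Sirt7*, and *Tubb3* and *Tubb2a* were chosen after their values were seen. *Matcap1* was not matched in the table. Relative depth was estimated from the step between FPKM values that rest on 1 fragment, which was sharp for TubA-20 (81.7% of genes near it within 0.03 log2) and less so for MII (23.0%) and TubA-10 (30.4%). The labels and the methods name different RNA extraction reagents. Read counts were not used, so no counting interval is given. Scripts were tested on simulated data. The transcript searches were added after the values were seen. Python 3.11.15, numpy 2.4.6, pandas 2.3.3 and matplotlib 3.10.9 were used.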

Additional observations from a re-analysis of the deposited data

Results flagged for a closer look

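At the lower and the higher dose, 4 listed genes lay on opposite sides of MII, a difference that was not tested because each dose had 1 library. On the log2 scale *Tuba4a* stood 0.43 above MII at the lower dose and at −1.08 at the higher, *Sirt2* at 0.47 and −0.80, *Tuba1a* at 0.58 and −0.21, and *Tuba1c* at −0.28 and 0.23. These signs held under all 4 scalings of the libraries.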

How the results depend on the processing

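No paired analysis was possible because each condition had 1 library, and for the same reason no library could be left out. Of 234 recomputed counts and summed changes 214 were held to be unmoved, and of 366 recomputed changes of single genes 357 were. A count had to stay within 1.5 times, and a change both within 1.5 times and on the same side of 2-fold. Dropping the filter, raising it to 5 FPKM or taking the highest of repeated entries could not move the change of a listed gene. Those settings are part of the 357 and say nothing about stability. Dropping the filter could not move a count of genes past 2-fold either. Taking the highest of repeated entries left every count and summed change as it was. These recomputed values are part of the 214 and likewise say nothing about stability. The number of listed genes lower in TubA-20 than in MII was 2 with a pseudocount of 0.1 and 3 with 0.01, where *Sirt2* (−1.05 and −1.08) and, with 0.01, *Hdac6* (−1.01) joined *Tuba4a*. With the median change set to 0, 2 listed genes rather than 1 were lower in TubA-10 than in GV. With a 3-fold threshold 1 listed gene was lower in TubA-20 than in GV, 0 than in MII and 0 than in TubA-10. Equal *Gapdh* put the 5-gene alpha-tubulin sum at −0.995 in MII and −0.98 in TubA-10 against GV. Of the pathway genes, 2 were higher in MII than in GV, which became 4 with either smaller pseudocount, 1 with at least 5 FPKM or with the median change set to 0, 5 with equal *Gapdh* and 0 at 3-fold. In TubA-20 against GV 3 were higher, which became 5 with either pseudocount or equal *Gapdh* and 0 at 3-fold. At 3-fold 5 pathway genes were lower in MII than in GV and 1 in TubA-20 than in MII. Signs below 2-fold turned for *Tuba1c* in MII against GV (−0.04 with the median change set to 0) and in TubA-10 against GV (0.09 with equal *Gapdh*), and for *Sirt2* in TubA-10 against GV (0.12 with equal *Gapdh*). The causes were not tested. *Hdac6*, *Sirt2* and *Tuba1a* lie at a few FPKM, where few fragments and the pseudocount weigh most.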
